A study of Rattus norvegicus with 32 samples.

Results

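Cultures of hair follicle (HF) epithelial cells that had been recovered from skin grafts were compared with HF cultures that had not been grafted. The members are the 4 HF cultures of the series, measured on 8 of its 32 arrays, with 2 arrays for each culture, and they were chosen by the tissue and the transplantation state that the labels give. Before transplantation there was a bulk culture, YR219P5_Bulk_V, and a clonal culture, YR219P5cl7. After a first transplantation into skin there was again a bulk culture, YR219P5_RC, and a clonal culture, Clone_54. All 4 carry the label P5 and came from Sprague-Dawley rats with a transgene (act-EGFP) that makes every cell produce enhanced green fluorescent protein. All were grown over irradiated mouse fibroblasts of the line 3T3-J2, and grafts with green follicles were taken from the backs of nude mice and dissociated. Each clonal culture is 1 clone, so each group rests on 1 clone and 1 bulk culture. The labels do not tie a grafted culture to the ungrafted culture it started from. The time in skin, the choice of the cells that grew back, and the further growth in culture differ together between the groups and cannot be told apart. The labels do not say that the cultures come from separate animals, so the p-values below measure the spread between cultures only. That spread was estimated within the 5 groups of all 16 cultures of the series, and not from the HF cultures alone. For comparison, 8 cultures of thymic epithelial cells (TEC) of the same strain were used. Of these, 4 had not been grafted (E16 clonal, P1 clonal, 4 months bulk and 4 months clonal). The other 4 came from a first transplantation into skin (E16 clonal in 2 cultures, P1 clonal and 4 months bulk). A further 4 TEC cultures, from a second transplantation (E16 clonal in 2 cultures, P1 clonal and 4 months bulk), entered only the estimate of the spread.

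The hair follicle is a skin appendage whose outer root sheath and bulge hold epithelial stem cells. In culture on feeder cells such cells grow as keratinocyte colonies, and when they are returned to skin they can contribute to new follicles, sebaceous glands and epidermis. Keratinocytes in a growing colony attach to laminin through hemidesmosomes and to each other through desmosomes and adherens junctions, and tight junctions form as they differentiate. Cells at a wound edge or in sparse culture are known for making matrix proteins, matrix metalloproteinases and other genes of a mesenchymal kind.

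The ungrafted cultures differed from each other more than the grafted ones did. Over the 15310 probe sets with 1 gene symbol, which stand for 14506 genes, the root mean square difference between YR219P5_Bulk_V and YR219P5cl7 was 0.46 on the log2 scale. The same distance was 0.34 between YR219P5_RC and Clone_54. From YR219P5_Bulk_V, the distance was 0.57 to YR219P5_RC and 0.56 to Clone_54. From YR219P5cl7, it was 0.33 to YR219P5_RC and 0.23 to Clone_54, the smallest of the 6 distances between cultures. YR219P5cl7 thus lay nearer to both grafted cultures than to the other ungrafted one. In YR219P5_Bulk_V, 261 probe sets stood more than 1 log2 unit above each of the other 3 cultures and 242 stood more than 1 below. For YR219P5cl7 these counts were 3 and 2, for YR219P5_RC 11 and 5, and for Clone_54 11 and 11.

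**Figure D1:**
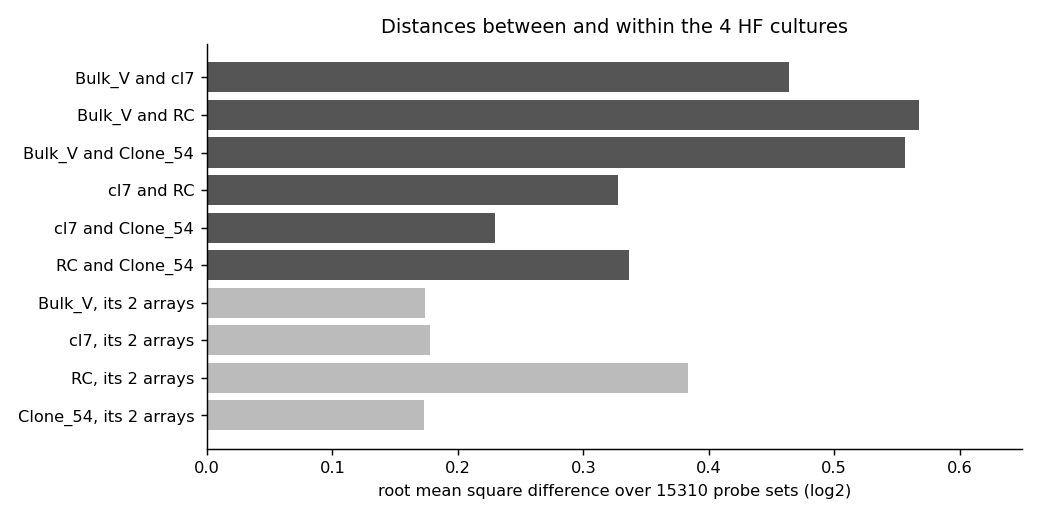
Root mean square log2 difference over all tested probe sets for each pair of HF cultures (dark bars, means of both arrays) and between the arrays of each culture (light bars). The bars with YR219P5_Bulk_V run from 0.46 to 0.57, and those among the other 3 cultures from 0.23 to 0.34.

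Arrays of the same culture lay 0.17 to 0.18 apart in 3 cultures and 0.38 apart in YR219P5_RC. Array 1 of YR219P5_RC had a median signal of 5.78, and the other 7 HF arrays had medians of 5.40 to 5.46. After median centring the arrays of YR219P5_RC were 0.29 apart. All 4 cultures had keratinocyte signals: Krt14, the basal keratin, was at 13.10 in YR219P5_Bulk_V and at 13.26 to 13.28 in the others. Tp63, the regulator of stratified epithelia, was at 9.13 to 10.10. Lhx2, a transcription factor of hair follicle stem cells, was at 6.92 to 7.59. Krt5 and Sox9 were not analysed here.

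No probe set passed the test of HF cultures after against before transplantation (limma, adjusted p under 0.05; 0 of 15310, 0%), and the smallest adjusted p was 0.562. At an unadjusted p under 0.05 there were 1353 probe sets, 963 of them higher and 390 lower after transplantation. The test sets 2 cultures against 2. An exact permutation test of that size cannot give a two-sided p below 0.333. The values below are therefore given as differences and not as changes. A second description counts the probe sets whose arrays do not overlap. In 1151 probe sets (7.52%) all 4 arrays after transplantation lay above all 4 before, and in 676 (4.42%) all 4 lay below. These shares moved with the scaling. Once arrays were centred on their medians they were 3.42% above and 8.67% below, and without array 1 of YR219P5_RC 7.94% above and 8.83% below. After quantile normalization they were 6.35% above and 6.38% below. Counts of a list under another scaling are read against the shares of that scaling. The median difference over all probe sets was 0.10 as deposited, 0.005 after centring and 0.03 without that array, so differences of gene lists are read against 0.10. Between the bulk cultures this median was 0.21 and between the clonal ones −0.004. Bulk and clonal medians of lists are read against these values.

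The result depended on which culture stood for the ungrafted state. Without YR219P5cl7, which leaves YR219P5_Bulk_V alone against both grafted cultures, 260 probe sets were called by limma (109 higher, 151 lower). The lone culture is assumed there to vary like the other groups. Without YR219P5_Bulk_V, 0 were called (268 at an unadjusted p under 0.05). Leaving out YR219P5_RC or Clone_54 also gave 0 called (413 and 2311 at an unadjusted p under 0.05). When arrays were the unit and the culture was a random block, 49 were called, 19 higher and 30 lower. That fit counts the spread between arrays of a culture along with the spread between cultures. It uses a single correlation (0.559) for all probe sets. Its p-values can therefore be too small for genes whose cultures differ far more than their arrays.

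The marker genes Nfasc and Jam3, both of cell adhesion, were lower on all arrays after transplantation. Nfasc encodes neurofascin, an immunoglobulin family adhesion protein known from axons, and its unadjusted p ranked first of all probe sets. Its signal was 7.88 and 8.15 on the arrays of YR219P5_Bulk_V, 6.78 and 6.66 in YR219P5cl7, 5.63 and 5.09 in YR219P5_RC, and 5.45 and 5.41 in Clone_54. Every array before transplantation was above every array after, and the ungrafted cultures differed from each other by more than the grafted ones. The level was 7.36 ± 0.92 before and 5.40 ± 0.05 after (SD, n = 2 cultures each), a difference of −1.97 (SE 0.35, 95% interval −2.72 to −1.21) or 3.91-fold (limma adjusted p = 0.562). Jam3, junctional adhesion molecule C, ranked second by p. It read 8.76 and 9.06 in YR219P5_Bulk_V, 6.70 and 6.98 in YR219P5cl7, 4.96 and 4.78 in YR219P5_RC, and 4.58 and 5.22 in Clone_54. Here too the groups did not overlap, and the grafted cultures were within 0.03 of each other in their means (4.87 and 4.90). The difference was −2.99 (SE 0.56, 95% interval −4.20 to −1.78), or 7.94-fold. With the culture as a random block, a fit that also counts the spread between arrays of a culture, the limma adjusted p was 0.00148 for each. The ungrafted cultures differed far more than their arrays in both genes, so this p can be too small. Both genes were known from earlier results of these data to differ in this way. Their ranks and p-values are therefore a description and not a test.

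Cldn1, Epcam and Mal2 had higher values after transplantation. Cldn1 encodes the main claudin of epidermal tight junctions. The arrays of Cldn1 read 6.57 and 6.62 in YR219P5_Bulk_V, 9.79 and 9.93 in YR219P5cl7, 10.34 and 10.12 in YR219P5_RC, and 10.30 and 10.29 in Clone_54. The step lay between YR219P5_Bulk_V and the other 3 cultures, although the groups did not overlap. Its difference was 2.03 (SE 0.65), with 3.63 between the bulk cultures and 0.44 between the clonal ones. Epcam, an adhesion molecule of simple and progenitor epithelia, read 7.59 and 7.70 in YR219P5_Bulk_V and 9.72 and 9.74 in YR219P5cl7. After transplantation Epcam read 10.72 and 10.87 in YR219P5_RC and 10.40 and 10.41 in Clone_54, a difference of 1.91 (SE 0.47, 3.77-fold). Mal2, a membrane protein of apical transport, was at 6.06 in YR219P5_Bulk_V, 8.97 in YR219P5cl7, and 9.83 and 9.91 in the grafted cultures.

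Across the 25 genes of the junctional adhesion and tight junction list, 0 were called, 1 had all arrays higher after transplantation (Cldn1) and 2 had all arrays lower (Jam3 and Nectin3, a nectin of adherens junctions). Both counts are near the 7.52% and 4.42% of all probe sets that had all arrays higher or lower. The list's median difference was 0.28, against 0.10 for all probe sets, and it was 0.59 between the bulk cultures and 0.07 between the clonal ones. Ocln, which encodes the tight junction protein occludin, was at 6.30 in YR219P5_Bulk_V and at 8.61 to 9.17 in the others. In the list of L1 family adhesion genes and their anchors, 1 of 14 had all arrays higher (Ezr, a linker of membrane and actin, 0.46; not so after median centring) and 2 had all arrays lower (Nfasc and Ank3). Ank3, the ankyrin that anchors neurofascin in neurons, differed by −0.57 (SE 0.28). Among 12 desmosome and gap junction genes, Perp, a desmosomal protein that p53 induces, was higher on all arrays (0.28; not so after centring). Gja1, the gap junction protein connexin 43, was lower on all arrays after transplantation (12.73 and 11.97 before, 11.51 and 11.72 after, difference −0.73, SE 0.22). With 14 and 12 genes, these lists are too short for such counts to be read against the shares of all probe sets.

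**Figure D2:**
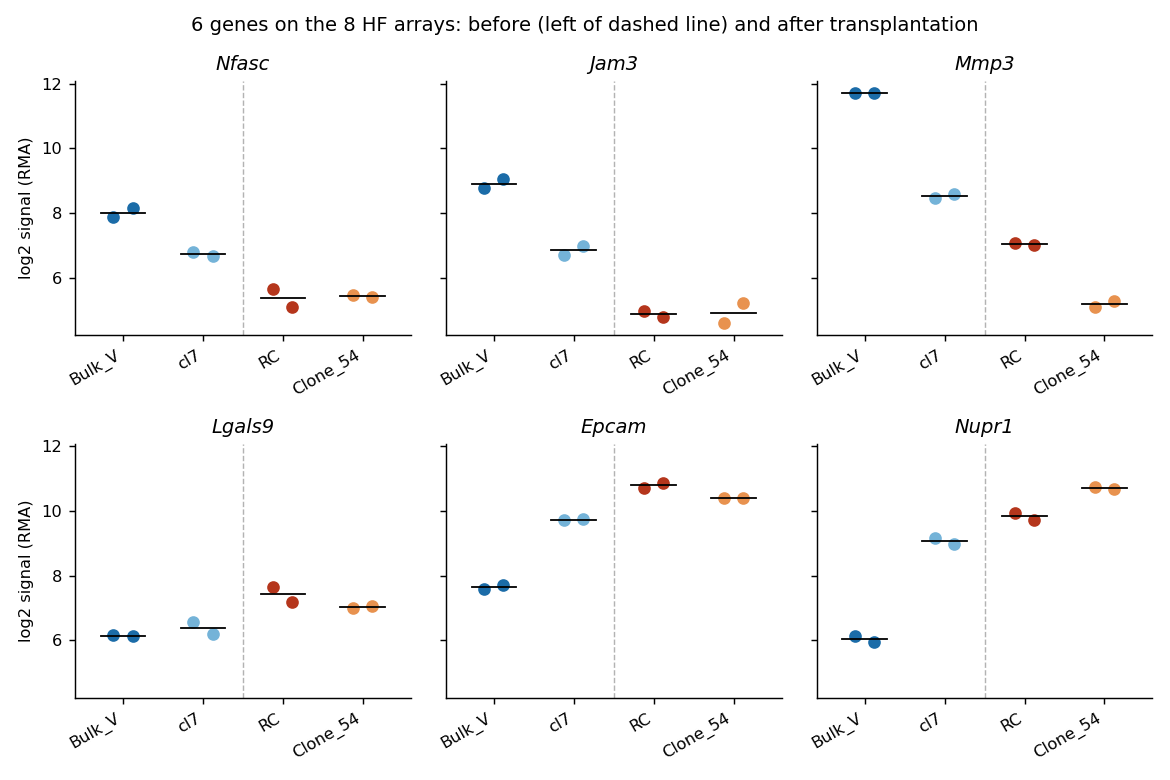
Log2 RMA signal of 6 genes (y axis) on each array of the 4 HF cultures (x axis), with ungrafted cultures left and grafted cultures right of the dashed line; points are arrays and bars the culture means. In all 6 genes the arrays of the groups do not overlap, and YR219P5cl7 lies between YR219P5_Bulk_V and the grafted cultures.

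Genes of the extracellular matrix and of matrix proteases were lower after transplantation in most values. Of the 30 genes of this list, 0 were called, 0 had all arrays higher and 9 had all arrays lower after transplantation. Among all probe sets 4.42% had all arrays lower. The list's lower count was 14 after median centring, where 8.67% of all probe sets were lower. It was 17 without array 1 of YR219P5_RC, where 8.83% were. The list's median difference was −0.64, with −0.86 between the bulk cultures and −0.26 between the clonal ones. Without YR219P5_Bulk_V the list's median was −0.13. Mmp3, the protease stromelysin 1, read 11.72 and 11.73 in YR219P5_Bulk_V, 8.45 and 8.59 in YR219P5cl7, 7.07 and 6.997 in YR219P5_RC, and 5.10 and 5.28 in Clone_54. Each culture stood at its own level, and the difference of −4.01 (SE 1.22, 95% interval −6.62 to −1.39) was the largest of any probe set with lower values. Mmp13, collagenase 3, was at 8.40 and 7.47 before and at 5.28 and 5.87 after transplantation, a difference of −2.36 (SE 0.74). Col12a1, a collagen that decorates fibrils, was at 10.29 in YR219P5_Bulk_V, 7.60 in YR219P5cl7, 7.03 in YR219P5_RC and 6.31 in Clone_54. Col5a2, a chain of the fibrillar collagen V, was at 9.83 and 8.92 before and at 7.73 and 7.63 after transplantation (difference −1.69, SE 0.43). Sparc, a secreted protein that binds collagen, was at 11.25 and 9.57 before and at 7.41 and 8.42 after.

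Further genes with all arrays lower after transplantation came from the 10 largest differences by the naming rule. Antxr1, a receptor that binds collagen, differed by −2.38 (SE 0.62), with levels of 9.01 and 6.90 before and 5.34 and 5.81 after transplantation. Ccdc80, a secreted matrix protein, differed by −1.97 (SE 0.62). Cpe, carboxypeptidase E, which trims peptide hormones, was at 10.46 and 7.79 before and at 6.39 and 6.53 after transplantation (difference −2.66, SE 0.82). Gpx8, a peroxidase of the endoplasmic reticulum, was at 10.08 and 8.33 before and at 6.23 and 7.09 after (−2.54, SE 0.57). Bhlhe41, a transcriptional repressor of the circadian clock, differed by −2.31 (SE 0.63), and Gask1b by −1.99 (SE 0.66). Bhlhe41 differed by −2.72 between the bulk and by −1.91 between the clonal cultures, and Cpe by −4.06 and −1.26.

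Epithelial and differentiation genes had the opposite direction in most values, and several were far lower in YR219P5_Bulk_V than in the other cultures. Of 22 probe sets of epidermal differentiation and the cornified envelope, 20 had higher means after transplantation, where 69.1% of all probe sets did, and 3 had all arrays higher (Ovol1, Klk6 and Klk7), where 7.52% of all probe sets did. The median difference was 0.44 (0.60 bulk, 0.32 clonal), where all probe sets had 0.10 (0.21 bulk, −0.004 clonal). Without YR219P5_Bulk_V it was 0.12, beside 0.08 for all probe sets. Between the clonal cultures alone, 18 of the 22 had all arrays higher and 2 all arrays lower. Of all probe sets 22.9% and 27.1% did so in that pair. Ovol1, a repressor that holds cells in the epithelial state, was at 5.38 in YR219P5_Bulk_V, 7.26 in YR219P5cl7, 8.04 in YR219P5_RC and 7.91 in Clone_54. Klk7, a protease of the cornified layer, was at 4.86 and 4.67 before and at 5.74 and 5.36 after transplantation. Tgm1, which cross-links the cornified envelope, was at 6.86 in YR219P5_Bulk_V, 10.47 in YR219P5cl7, 10.00 in YR219P5_RC and 10.95 in Clone_54, so its groups overlapped. Of 15 probe sets of simple epithelium, Elf3, an epithelial transcription factor, and Epcam had all arrays higher, and Krt7, a simple keratin, had all arrays lower. Elf3 was at 4.30 in YR219P5_Bulk_V, 7.14 in YR219P5cl7, 8.22 in YR219P5_RC and 8.84 in Clone_54, a difference of 2.80 (SE 1.04).

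The transcription factors that keep cells epithelial or mesenchymal also separated YR219P5_Bulk_V. Zeb1, a repressor of epithelial genes, was at 7.10 in YR219P5_Bulk_V and at 4.16, 4.34 and 4.16 in YR219P5cl7, YR219P5_RC and Clone_54. Its difference between the clonal cultures was 0.003, and that between the bulk cultures −2.76. Grhl2, an activator of epithelial junction genes, was at 6.49 in YR219P5_Bulk_V and at 7.99 to 8.16 in the others. Cdh1, which encodes E-cadherin, was at 9.19 in YR219P5_Bulk_V and at 10.59 to 10.71 in the others. For these 3 genes the step lay between YR219P5_Bulk_V and the other 3 cultures, and the groups overlapped.

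The upstream sequences of Epcam, Nupr1 and Lgals9 are shown because these genes had higher values on all grafted arrays and each holds a motif of a factor family discussed with it. They are the 250 bases before the annotated start in RefSeq, build GRCr8, 5′ to 3′ on the gene's strand, and capitals mark the motif. RefSeq windows were matched for 16 of the 22 genes named by rank or as markers, and not for Antxr1, Col12a1, Gpx8, Jam3, Mal2 and RT1-DMb. For Epcam (chr6:12649679-12649928, minus strand) the motif is CACCTG, the E-box that Zeb and Snail proteins bind, whose first base lies at −165 from the start. For Nupr1 (chr1:190645902-190646151, minus strand) it is TGATGNAA, the core of the amino acid response element, read on the other strand from −55. For Lgals9 (chr10:64428071-64428320, minus strand) it is TTTCNNTTT, the core of the interferon-stimulated response element, from −16.
Epcam: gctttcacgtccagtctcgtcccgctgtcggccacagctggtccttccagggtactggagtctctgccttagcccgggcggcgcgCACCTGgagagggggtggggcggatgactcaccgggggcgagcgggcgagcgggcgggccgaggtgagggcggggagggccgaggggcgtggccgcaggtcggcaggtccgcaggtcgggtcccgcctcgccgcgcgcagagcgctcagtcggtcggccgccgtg
Nupr1: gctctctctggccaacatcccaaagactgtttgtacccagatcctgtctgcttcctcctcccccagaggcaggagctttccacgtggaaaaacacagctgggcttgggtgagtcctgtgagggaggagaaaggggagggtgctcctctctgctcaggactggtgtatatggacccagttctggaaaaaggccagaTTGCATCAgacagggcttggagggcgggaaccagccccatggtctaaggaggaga
Lgals9: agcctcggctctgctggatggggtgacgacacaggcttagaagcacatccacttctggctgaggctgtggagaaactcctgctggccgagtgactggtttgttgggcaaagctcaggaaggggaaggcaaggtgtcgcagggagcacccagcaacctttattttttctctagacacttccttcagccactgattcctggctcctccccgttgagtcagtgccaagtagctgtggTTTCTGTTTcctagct
Each motif was searched on both strands. A gene counted as matched if any of its windows held the motif, while the shares of all genes count single windows, so they are not like measures. CACCTG was found in 15.9% of the 33469 windows of all genes, and in 6 of the 16 matched genes (Bhlhe41, Cds1, Chchd10, Cpe, Epcam and Sp100), of which Bhlhe41 and Cpe had lower values after transplantation. TGATGNAA was found in 3.4% of all windows and, of the 16, in Nupr1. TTTCNNTTT was found in 10.3% of all windows and in Lgals9, Mmp13 and Mmp3. A match describes these letters, and no binding was measured.

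Lgals9 is described with genes of antigen presentation and interferon response, lists whose medians lay near that of all probe sets. Lgals9, the galectin 9 gene, encodes a secreted lectin that binds receptors on immune cells. On the probe set 10745292 it read 6.15 and 6.13 in YR219P5_Bulk_V, 6.55 and 6.20 in YR219P5cl7, 7.65 and 7.19 in YR219P5_RC, and 7.004 and 7.05 in Clone_54. Lgals9 too was known from earlier results to separate the groups. All grafted arrays were above all ungrafted ones, and the ungrafted cultures had like levels, unlike those of most genes described above. The difference was 0.97 (SE 0.20, 95% interval 0.53 to 1.40), or 1.95-fold. The other Lgals9 probe set, 10822943, did not separate the groups: its culture means were 5.36 and 5.50 before and 5.88 and 5.52 after transplantation (difference 0.27, SE 0.17). Of 12 galectin probe sets, Lgals9 was the 1 with all arrays higher and Lgals3bp, a secreted galectin ligand, the 1 with all arrays lower. Among all probe sets 7.52% and 4.42% did so, and the list is too short to be read against these shares. Lgals3bp was at 9.22 and 8.84 before and at 8.20 and 8.07 after (−0.89, SE 0.36). Lgals1, a galectin common in mesenchymal cells, was at 10.14 in YR219P5_Bulk_V and at 7.40 to 7.50 in the others. Lgals7, the squamous galectin, was at 10.83 to 11.61 in the 4 cultures.

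Sp100, a component of nuclear bodies that interferon induces, was at 3.75 in YR219P5_Bulk_V, under the level of 4 that was taken as background. It was at 5.28 in YR219P5cl7, 7.63 in YR219P5_RC and 6.47 in Clone_54. RT1-DMb and RT1-DMa encode the chains of the molecule that loads peptides onto MHC class II. RT1-DMb read 5.50 and 5.32 in YR219P5_Bulk_V, 5.603 and 5.74 in YR219P5cl7, 7.66 and 7.42 in YR219P5_RC, and 6.52 and 6.59 in Clone_54 (difference 1.51, SE 0.35). As with Lgals9, the ungrafted cultures had like RT1-DMb levels and the groups did not overlap. RT1-DMa was at 8.13 in YR219P5_Bulk_V and at 9.99 to 10.24 in the others. Ciita, the activator of MHC class II genes, was at 4.95 to 5.22 in all 4 cultures, and Cd74, the invariant chain, at 5.53 and 7.16 before and at 6.38 and 6.15 after transplantation. Of 22 probe sets of antigen presentation, 4 had all arrays higher and 1 had all arrays lower after transplantation (2 and 1 after median centring, 1 and 2 after quantile normalization), where 7.52% and 4.42% of all probe sets did. Their median was 0.16, against 0.10 for all probe sets. Of 24 interferon response genes, 3 had all arrays higher (Bst2, Dhx58 and Oas2, the last at levels under 4) and 0 all arrays lower (2 and 0 after centring), and the list's median was 0.07, below that of all probe sets, and −0.11 between the clonal cultures.

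Of the 10 higher genes ranked by the naming rule (unadjusted p under 0.01, arrays that do not overlap and a level of at least 6), the other 5 belong to metabolism, stress and peptide signalling. Nupr1, a small chromatin protein induced by stress, read 6.14 and 5.94 in YR219P5_Bulk_V, 9.16 and 8.97 in YR219P5cl7, 9.94 and 9.73 in YR219P5_RC, and 10.74 and 10.68 in Clone_54. The groups did not overlap, but the step of 3.03 between the ungrafted cultures exceeded the difference of 2.72 (SE 0.72) between the groups. Phgdh, which starts serine synthesis, read 6.36 and 5.98 in YR219P5_Bulk_V, 7.24 and 7.17 in YR219P5cl7, 8.54 and 8.599 in YR219P5_RC, and 8.38 and 8.37 in Clone_54 (1.78, SE 0.40, 3.44-fold). Adm, which encodes the vasoactive peptide adrenomedullin, read 8.23 and 8.12 in YR219P5_Bulk_V and 8.22 and 8.44 in YR219P5cl7, against 9.52 and 9.53 in YR219P5_RC and 9.89 and 9.90 in Clone_54. Adm differed by 1.45 (SE 0.34), with 1.35 in the bulk and 1.56 in the clonal cultures, so it was the 1 of the 20 genes ranked by difference whose clonal difference was the larger. Cds1, an enzyme of phospholipid synthesis, differed by 1.92 (SE 0.43), and Chchd10, a mitochondrial protein, by 1.40 (SE 0.44). Of 26 probe sets of hypoxia and glycolysis, Adm, Egln3 and Vegfa had all arrays higher (2 of these after centring, and 7.52% of all probe sets as deposited), while the probe sets of Eno1, Ldha and Slc2a1 differed by 0.06 or less. Of 22 probe sets of lipid synthesis and the sebaceous gland, 4 had all arrays higher (Fads1, Insig1, Prdm1 and Scd; 2 after centring) and 0 all arrays lower, beside 7.52% and 4.42% among all probe sets. Their median was 0.25 (0.47 bulk, 0.02 clonal).

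Basal keratinocyte and hemidesmosome genes were lower after transplantation in the bulk culture in particular. Of 11 genes, 0 had all arrays higher and 5 all arrays lower after transplantation: Itgb4, Col17a1, Lama3, Plec and Cd44. Of all probe sets 4.42% had all arrays lower. The list's count was 7 after median centring (8.67% of all probe sets) and 2 after quantile normalization (6.38%). With 11 genes, this list too is short for its counts to be read against those shares. Itgb4, the beta 4 integrin of hemidesmosomes, was at 11.87 and 11.14 before and at 10.51 and 11.02 after transplantation (−0.74, SE 0.27). Col17a1, the hemidesmosomal collagen XVII, was at 11.06 and 10.19 before and at 9.79 and 10.11 after (−0.68, SE 0.31). The list's median was −0.39, with −0.67 between the bulk cultures and −0.09 between the clonal ones.

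The lists of hair follicle stem cells and of the hair shaft had medians of 0.05 and 0.20, against 0.10 for all probe sets. Of 18 probe sets of follicle stem cells and placodes, 2 had all arrays higher (Gli1, an effector of hedgehog signalling, and Vdr, the vitamin D receptor) and 1 all arrays lower (a Tcf7l1 probe set), where 7.52% and 4.42% of all probe sets did. After centring 1 was higher and 3 were lower. The median of this list turned to −0.05 after centring, and its differences ran from −1.53 to 0.90. Krt15, the bulge keratin, read 12.27 and 12.29 in YR219P5_Bulk_V, 8.98 and 9.11 in YR219P5cl7, 8.72 and 8.89 in YR219P5_RC, and 9.45 and 9.46 in Clone_54. Krt15 had the lowest difference of the list, −1.53 (SE 1.06), with −3.47 between the bulk cultures and 0.41 between the clonal ones. Lgr5, a stem cell receptor, was at 4.30 to 5.38, with a difference of 0.07 (SE 0.34) that turned to −0.03 after centring. Tcf7l1, a repressor of Wnt targets in bulge cells, differed by −0.57 (SE 0.23) on 1 probe set and by −0.17 and −0.02 on its others. Of 18 probe sets of the hair shaft, inner root sheath and companion layer, 0 had all arrays higher and 1 had all arrays lower (Gata3, −0.34; 0 after centring), and the hair keratins of this list lay at 3.83 to 7.34 in the 4 cultures.

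In each signalling list 0 or 1 had all arrays higher and 0 to 3 all arrays lower, where 7.52% and 4.42% of all probe sets did. These counts are too small to be read against those shares. In the Wnt list of 30 genes, 1 had all arrays higher (Wif1) and 3 had all arrays lower (Wnt6, Lrp6 and Fzd6); after centring these counts were 0 and 3. Lrp6, a Wnt co-receptor, was at 8.52 and 8.25 before and at 7.87 and 7.99 after transplantation (−0.46, SE 0.13). Fzd6, a Wnt receptor that orients hair follicles, differed by −0.31 (SE 0.12). In the BMP, activin and TGF-beta list of 28 genes, Bmp6 had all arrays higher and Ltbp1, which stores latent TGF-beta in the matrix, all arrays lower (10.96 and 9.85 before, 9.50 and 9.33 after; −0.99, SE 0.32). Ltbp2 was at 10.10 in YR219P5_Bulk_V and at 5.65 to 5.94 in the others. In the Notch list of 19 genes, Jag2 had all arrays higher (not so after centring), and Jag1, a Notch ligand, all arrays lower (11.80 and 10.64 before, 10.39 and 10.25 after; −0.90, SE 0.34). Of 13 EGF family genes, 0 separated the groups in either direction (1 was lower after centring).

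Cell cycle genes were higher in the grafted bulk culture than in the ungrafted one, and not between the clones. Of 27 probe sets, 8 had all arrays higher and 0 all arrays lower after transplantation, where 7.52% and 4.42% of all probe sets did. After centring 3 had all arrays higher, where 3.42% of all probe sets did. The median difference was 0.46, with 1.00 between the bulk cultures and −0.03 between the clonal ones. Cdc20, an activator of mitotic exit, was at 9.50 in YR219P5_Bulk_V, 10.48 in YR219P5cl7, 10.86 in YR219P5_RC and 10.82 in Clone_54. Ccnd1, cyclin D1, was at 12.40 in YR219P5_Bulk_V and at 11.50 to 11.66 in the others. Of 19 probe sets of the p53 response and senescence, 6 had all arrays lower (Cdkn2b, Cdkn2a, Fas, Zmat3, Ccng1 and Plk2) and 3 all arrays higher (Phlda3, Sesn1 and Gadd45b; 0 after centring), beside 4.42% lower and 7.52% higher among all probe sets. Cdkn2b, an inhibitor of the G1 kinases, was at 9.26 and 8.06 before and at 6.32 and 6.81 after transplantation (−2.09, SE 0.97). Fas, a death receptor, was at 8.17 and 7.57 before and at 6.46 and 6.98 after (−1.15, SE 0.41). Cdkn1a, the p21 inhibitor, was at 9.18 and 10.19 before and at 9.40 and 10.01 after. The median of this list was −0.17, and −0.42 without YR219P5_Bulk_V.

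**Figure D3:**
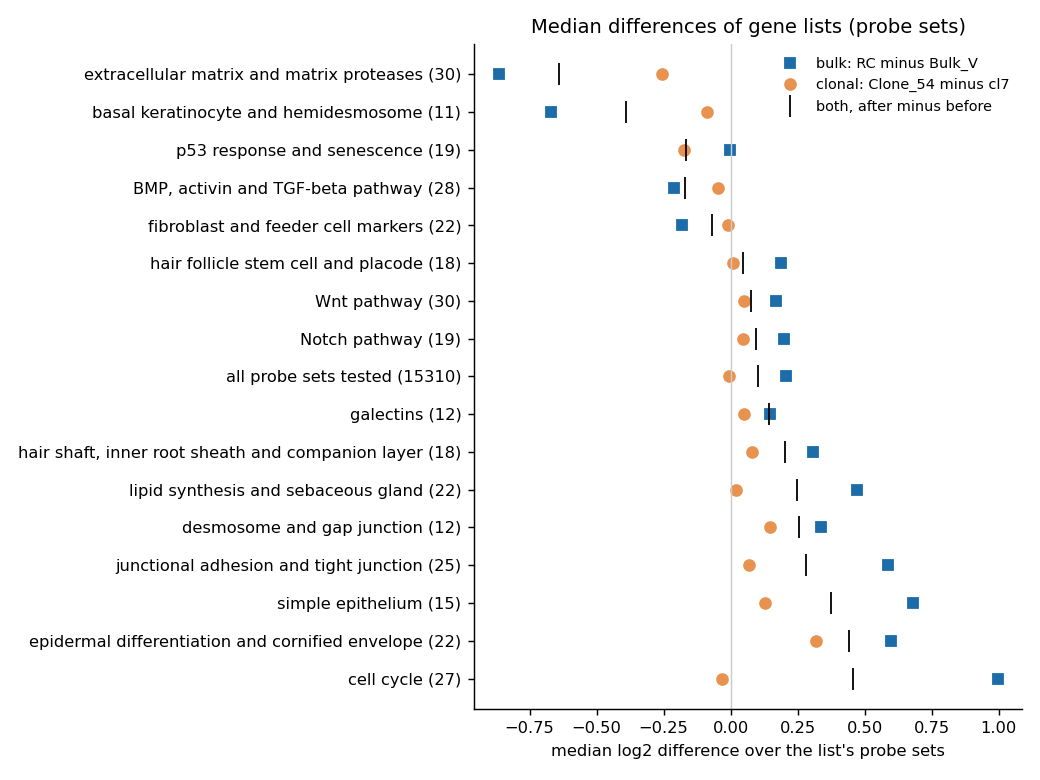
Median log2 difference after minus before transplantation over the probe sets of 16 gene lists and of all probe sets (x axis), with the number of probe sets in brackets; squares are bulk cultures, circles clonal cultures and ticks both together. For most lists the bulk median lies farther from 0 than the clonal one, as for cell cycle (1.00 and −0.03) and extracellular matrix (−0.86 and −0.26). Over all probe sets the bulk median was 0.21 and the clonal one −0.004.

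Some markers of fibroblasts had their highest level in YR219P5_Bulk_V, and others did not. The median level of the 22 fibroblast and feeder cell markers was 6.54 in YR219P5_Bulk_V and 5.84 to 5.99 in the other cultures. In this list 0 had all arrays higher after transplantation and 2 had all arrays lower, where 7.52% and 4.42% of all probe sets did. The 2 were Sparc, which is also in the matrix list, and Fstl1 (10.75 and 9.70 before, 9.14 and 8.94 after). Of fibroblast-defining markers, Dcn was at 3.90 to 4.22, Lum at 2.46 to 2.60 and Pdgfra at 4.81 to 5.07 in the 4 cultures, with no higher level in YR219P5_Bulk_V. Col1a1 was at 7.15 in YR219P5_Bulk_V and 6.85 to 6.93 in the others. Thy1 was at 6.78 in YR219P5_Bulk_V and at 4.48 to 5.42 in the others, and Vim, which encodes vimentin, at 11.81 in it and at 10.35 to 11.38 in the others. Mouse feeder RNA can bind rat probes, and its part in these values was not tested. In bulk RNA, more cells of a type and more RNA per cell cannot be told apart. The lists of haematopoietic, melanocyte, endothelial, nerve and muscle markers held 0 genes whose arrays separated the groups. With 7 to 12 probe sets each, they are too short for this to be read against the 7.52% and 4.42% of all probe sets. Ptprc, the pan-leukocyte gene, was at 3.36 to 3.88, and Tyr, the pigment enzyme, at 2.94 to 3.52.

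The bulk and the clonal comparison shared direction in part. Over all probe sets 58.4% had the same sign in both, and Pearson's r across probe sets was 0.36 (Spearman's rho 0.27). Probe sets are not independent, and no test was made of these values. In all 20 genes ranked by difference, YR219P5cl7 lay between YR219P5_Bulk_V and both grafted cultures, and in 19 of the 20 the bulk difference was the larger. That both comparisons had the same sign in these genes follows from the rule that named them, which asked for groups that do not overlap. With only the clonal cultures in the HF groups, limma called 0 probe sets (87 at an unadjusted p under 0.05).

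**Figure D4:**
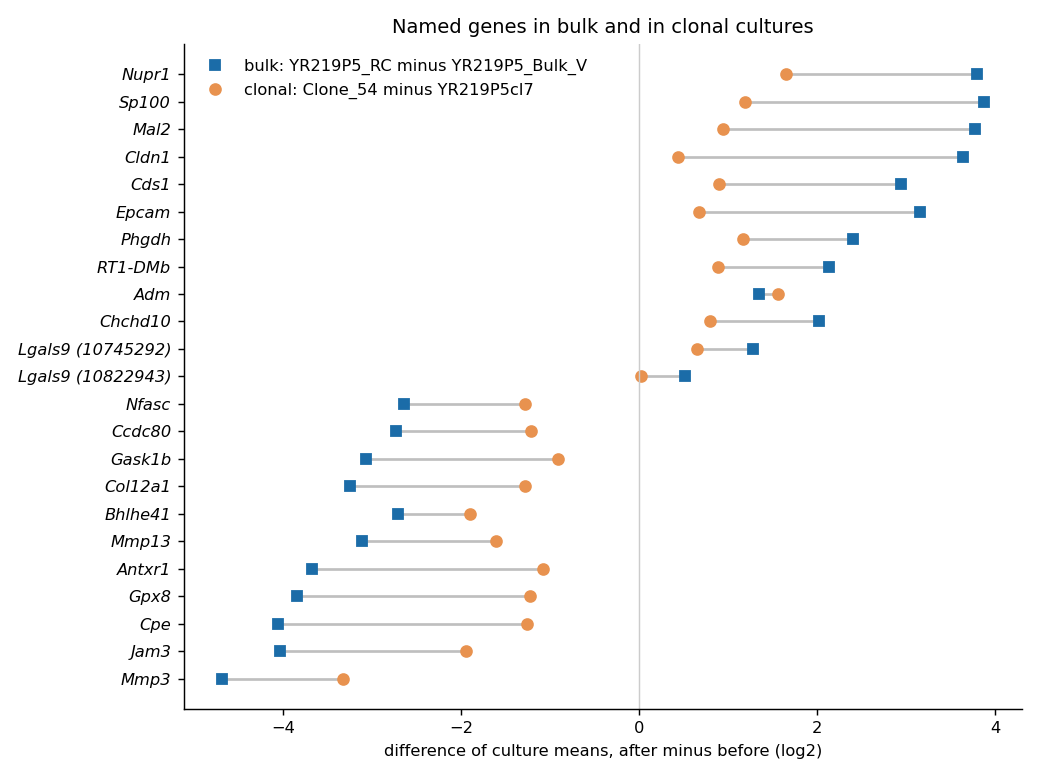
Difference after minus before transplantation (log2, x axis) of the 20 genes ranked by difference, of Nfasc and of both Lgals9 probe sets (rows), in bulk cultures (squares) and clonal cultures (circles). Adm has the larger difference in the clonal cultures (1.56 against 1.35), and the other genes have it in the bulk cultures.

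The HF difference was set against that of thymic cultures after a first transplantation, which share no arrays with it. In TEC cultures 79 probe sets were called by limma, of which 33 were higher and 46 lower. Of the 33, the HF cultures had higher means after transplantation in 25 and lower in 8, with a median HF difference of 0.30. Over all probe sets, 69.1% had higher HF means after transplantation and the median was 0.10, so the count of 25 is near the share of all probe sets. All HF arrays were higher in 7 of the 33 and lower in 0, where 7.52% and 4.42% of all probe sets were. Of the 46, the HF means were lower in 35 and higher in 11, with a median of −0.23, and all HF arrays were lower in 9 and higher in 2 (4.42% and 7.52% of all probe sets). Over all probe sets 4736 of 15310 had lower HF means. Across all probe sets Pearson's r between the HF and the TEC differences was 0.41 (Spearman's rho 0.33), with the same limit on independence. Nupr1 had near-equal differences, 2.72 in HF and 2.69 in TEC cultures (limma adjusted p = 0.0351 in TEC). Cdc25b, a phosphatase that starts mitosis, differed by 1.15 in both. Gpr15lg, a secreted peptide of epithelia, was called in TEC cultures, and its HF groups overlapped, with 5.38 in YR219P5_Bulk_V, 8.92 in YR219P5cl7, 8.77 in YR219P5_RC and 10.34 in Clone_54.

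The test of the difference between tissues, the interaction of tissue and first transplantation, called 0 of 15310 probe sets (0%; 866 at an unadjusted p under 0.05). Lgals9 came closest, on the probe set 10745292: its values differed by 0.97 in HF and by −0.75 in TEC cultures, an interaction of 1.72 (limma adjusted p = 0.125). It was called without the TEC culture PRP4mo_bulk (1.84, limma adjusted p = 0.024), without YR219P5cl7 (1.84, adjusted p = 0.00977) and with the culture as a random block (adjusted p = 0.000673). It was not called without YR219P5_Bulk_V (1.60, limma adjusted p = 0.831), YR219P5_RC (1.52, adjusted p = 1) or Clone_54 (1.92, adjusted p = 0.0972). Without any other TEC culture the limma adjusted p was 0.0961 to 0.392. The other Lgals9 probe set, 10822943, had an interaction of 0.46 (limma adjusted p = 0.826). Lgals9 was known from earlier results to separate the HF groups, so its p-values here are a description and not a test. Slc6a14, an amino acid transporter, had all HF arrays higher after transplantation (3.59 and 3.43 before, 4.46 and 4.33 after) and was lower in TEC cultures (−1.67). Both levels before transplantation were below 4 and so within background. Gja1 differed by −0.73 in HF and by 0.53 in TEC cultures (interaction −1.26, limma adjusted p = 0.707). Nfasc differed by −1.97 in HF and by −0.02 in TEC cultures (interaction −1.95, adjusted p = 0.731). Enpp1 and Cdc42ep5 also ranked high, but their HF differences were −0.31 and −0.01, so their interactions rest on the TEC cultures (2.52 and −3.45).

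**Figure D5:**
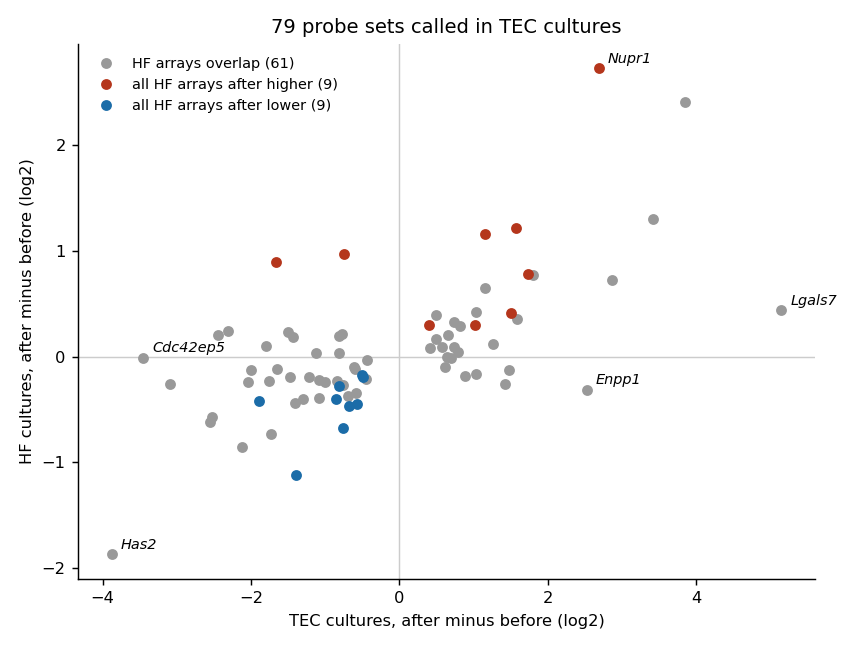
Differences after minus before a first transplantation (log2) in TEC cultures (x axis) and HF cultures (y axis) for the 79 probe sets that limma called in TEC cultures; colours mark whether the HF arrays separated. Of the 79, 9 had all grafted HF arrays higher (Nupr1 the farthest, at 2.72) and 9 had all lower.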

How the data were processed

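The deposited log2 signals were obtained by the authors with RMA. The submitters' processing notes name Affymetrix Expression Console, and the arrays were hybridised with RNA amplified and biotin-labelled by a whole transcript protocol per the labels. RMA had already corrected the background and normalized between arrays before deposition, its version and annotation are not given in the sources used here, and no value was transformed again. The log2 scale was read from the range of the values, 1.526 to 14.03. The table held 29215 probe sets, of which 15310 had 1 gene symbol, 323 several and 13582 none listed. The Entrez gene of 15279 was found in RefSeq. Arrays have no count depth, so the number of cultures limits the precision.

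Both arrays of a culture were averaged, and limma 3.58.1 (R 4.3.3; lmFit, eBayes) was fitted to the 16 culture means with 1 coefficient for each of 5 groups, which share 1 estimate of the spread. P-values were adjusted by Benjamini-Hochberg over the 15310 probe sets, with a threshold of 0.05. Named genes are the 10 largest differences in each direction with an unadjusted p under 0.01, arrays that do not overlap and a mean of at least 6 in 1 group, the markers Lgals9, Jam3 and Nfasc, up to 4 members of each list with the smallest p, a keratinocyte panel, and the 10 smallest p of the interaction. Other genes are named as examples chosen after their values were seen, or to list the members that separated the groups. The members and the 28 gene lists were chosen with earlier results of these data known. No p-value is given for a list. A level under 4 was taken as not shown to lie above background. The fit was tested on simulated data. Alternatives changed the scaling, the probe sets, the unit, the cultures and the arrays used.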

Additional observations from a re-analysis of the deposited data

Results flagged for a closer look

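Array 1 of YR219P5_RC had a median signal of 5.782 among the 8 HF arrays, whose other medians ran from 5.404 to 5.456, and its gap to the nearest array was large for the range of its group. Results that rest on counts of arrays are given with and without it. The level of Pcyt1b, an enzyme of phosphatidylcholine synthesis named by its interaction, was 3.86 in the ungrafted TEC culture PRE16cl11_VII, apart from the other 3 ungrafted TEC cultures. Among 24 groups of levels examined in this way, chance marks about 1 in 20.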

How the results depend on the processing

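With 0 called as reported, 0 probe sets were also called for HF after against before transplantation in the fit of the HF cultures alone, after median centring, after quantile normalization, over all probe sets, over those with a mean of at least 6, with the culture type as a covariate, in the clonal cultures, without array 1 of YR219P5_RC, and with trend and robust eBayes. With the culture as a random block 49 were called, and 43 for the interaction; with the array number added as a replicate block 36 and 34. The array number only names an array: the deviations of same-numbered arrays correlated at −0.154 to 0.0944 over the 6 pairs of HF cultures. Leaving out 1 culture in turn gave 0 to 260 called, and 0 to 75 for the interaction, the highest of both without YR219P5cl7; without PRP4mo_bulk the interaction called 1. Probe sets with all arrays higher numbered 524 after centring, 764 with a mean of at least 6, 1843 over all probe sets and 3501 in the clonal cultures, and 1846 to 4616 without 1 culture. Those with all arrays lower numbered 1327 after centring, 4142 in the clonal cultures and 1352 without array 1 of YR219P5_RC, and 949 to 2648 without 1 culture. Fewer arrays separate more often. Of the 20 genes ranked by difference, 19 were called with the culture as a random block, 17 with the replicate block added and 13 without YR219P5cl7, and all 20 kept their direction in the settings tried. These 20 genes were ranked on the same values, so their counts are a description. By the naming rule their arrays do not overlap, so leaving out a culture or an array could not reverse their direction. Some of the named genes reversed. Krt15 was 0.41 in the clonal cultures and −3.15 to 0.083 without 1 culture, Zeb1 0.0027 and −2.85 to 0.090, and Lhx2 0.46 and −0.34 to 0.33, with 0.021 without array 1 of YR219P5_RC. Tp63 was 0.18 in the clonal cultures and Krt14 −0.0080 after centring. Lgr5 was −0.026 after centring and after quantile normalization, −0.37 in the clonal cultures, −0.30 without array 1 of YR219P5_RC, and −0.47 to 0.61 without 1 culture. A Krt8 probe set was −0.047 after centring, −0.051 after quantile normalization and −0.28 to 0.38 without 1 culture, and the other −0.40 to 0.051 without 1 culture. The causes were not tested. Low signals limit what can be said of genes under 4.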

Other observations

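Genes of amino acid supply, tRNA charging and the integrated stress response formed a group that the gene lists did not hold. The list was put together after the values of its members had been seen, so it is a description without a test. Of its 40 probe sets (38 genes), 26 had all 4 arrays after transplantation above all 4 before and 1 had all below (Cth), where 7.52% and 4.42% of all probe sets did. After median centring the counts were 14 and 1, where 3.42% and 8.67% of all probe sets had all arrays higher and lower. The median difference was 0.44, with 0.52 between the bulk and 0.33 between the clonal cultures, where the medians of all probe sets were 0.21 and −0.004. Without YR219P5_Bulk_V it was 0.29, and in TEC cultures it was 0.26. None was called by limma, and 17 had an unadjusted p under 0.05, all of them higher after transplantation.

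Serine and one-carbon enzymes were among the larger values: Phgdh differed by 1.78 (SE 0.40), Psph by 0.94 (SE 0.36) and Mthfd2 by 0.92 (SE 0.31) on 1 probe set and 0.87 (SE 0.29) on the other. Psph, the last enzyme of serine synthesis, was at 7.14 in YR219P5_Bulk_V, 7.77 in YR219P5cl7, 8.54 in YR219P5_RC and 8.26 in Clone_54. Stc2, a secreted glycoprotein induced by stress, read 6.57 and 6.65 in YR219P5_Bulk_V, 7.30 and 7.23 in YR219P5cl7, 8.59 and 8.78 in YR219P5_RC, and 8.70 and 8.82 in Clone_54 (1.78, SE 0.65). Yars1, the tyrosyl-tRNA synthetase, was at 10.02 and 10.46 before and at 10.90 and 10.85 after transplantation (0.63, SE 0.15). Trib3, a pseudokinase induced by the same response, differed by 1.19 (SE 0.46). Atf4, the transcription factor of this response, differed by 0.28 (SE 0.16), with all arrays higher. The synthetase genes Aars1, Iars1, Lars1 and Eprs1 differed by 0.06 to 0.13, and their arrays overlapped. Phgdh and Trib3 differed by −0.01 and 0.08 in TEC cultures, and Stc2 by 1.93.

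TGATGNAA on either strand, the core of the amino acid response element, was found in 10 of the 34 list genes with a RefSeq window. The windows held the 250 bases before the start, and 3.4% of all windows held the core. A gene counted if any of its windows matched, so its share is not like that of single windows. The list was made of genes of this response, so a high share can follow from that choice and is not independent support. The 10 were Nupr1, Trib3, Mars1, Chac1, Got1, Nars1, Pycr1, Aars1, Iars1 and Slc7a1, of which Pycr1, Aars1, Iars1 and Slc7a1 had overlapping arrays. The window of Chac1 (GRCr8, chr3:126795881-126796130, plus strand), a glutathione-degrading enzyme with all arrays higher (0.53, SE 0.31), is shown with the match in capitals, from −167.
Chac1: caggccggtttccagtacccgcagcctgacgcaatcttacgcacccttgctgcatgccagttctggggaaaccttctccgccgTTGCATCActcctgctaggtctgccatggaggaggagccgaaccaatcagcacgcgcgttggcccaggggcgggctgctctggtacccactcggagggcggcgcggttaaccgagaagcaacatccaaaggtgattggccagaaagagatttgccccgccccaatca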
